A study of Mus musculus with 28 samples.

Results

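CD4 T cells of mouse spleen that had been kept for 1 day with romidepsin at 30 nM were compared with stimulated control CD4 T cells, across every gene that 1 probe set of the array could stand for. These are 2 romidepsin arrays and 2 control arrays, 4 of the 28 arrays in the series. The probe set with the brightest mean over the 28 arrays stood for each of 18193 genes, and 9868 of them were bright enough in at least 2 arrays to be tested. The arrays of a group carry the replicate numbers 1 and 2, and each romidepsin array was paired with the control array of its number. The series asked how 2 inhibitors of histone deacetylases act on gene expression in T cells.

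All cells in both groups were isolated from spleen by negative selection with a kit, and activated for 2 days with plate-bound antibody to CD3 (3 µg/ml) and soluble antibody to CD28 (5 µg/ml). The romidepsin group then received the drug at 30 nM for 1 day. The labels give the control as stimulated, name no vehicle for it and do not say how long it was kept after stimulation. Strain, age and the number of animals are not given, nor whether the 2 arrays of a group came from separate animals or cultures. The p-values therefore measure only the spread between arrays of the series, pooled over its groups. The other groups used below are CD4 cells with romidepsin at 2 or 10 nM or vorinostat at 10 µM, and CD8 cells with romidepsin at 30 nM or as stimulated controls, with 2 arrays each.

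Histone deacetylases remove acetyl groups from lysines of histones and of many other proteins. Romidepsin is a cyclic depsipeptide prodrug whose reduced thiol binds the zinc in the active site of these enzymes, chiefly those of class I, and it is used against T cell lymphoma. Blocking the enzymes raises histone acetylation, and both rises and falls of many transcripts follow in most cells studied. An activated CD4 T cell depends on signalling from its antigen receptor and CD28, on cytokines such as interleukin 2 acting through JAK and STAT proteins, and on transcription factors that set which helper cytokines it makes.

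The values are GCRMA values on a log2 scale, so a difference of 1 is a doubling. GCRMA models the background of each probe, and levels of different genes cannot be set against each other. The detection level was 4.275, which is 2 log2 units over the commonest value. A gene is said to have risen or fallen where limma gave an adjusted p under 0.05 in a fit that held the replicate number as a block. Genes and counts that the fit without the block does not call are said to be lost without it. Changes are followed by ± their standard error, with 2 arrays in each group. Where a group's mean lay under the detection level, the fold is a bound computed from that level and is written "at least".

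The arrays fell into 2 sets by replicate number. Eif2s3y, on the Y chromosome, was at 11.36 to 12.02 in the arrays numbered 1. Xist, the RNA that silences an X chromosome in females, was at 11.69 to 12.72 in those numbered 2, so the sets differ in sex, which the labels do not state. Each set holds 1 romidepsin and 1 control array, so a change within a number is not a change between sexes. Over the 4 arrays, 8663 and 9272 genes lay over the detection level in the romidepsin arrays, against 8515 and 9132 in the control arrays. For beta-actin, the level of its 3' probe set over that of its 5' one, a sign of how whole the labelled RNA was, came to 1.55 and 0.97 in the romidepsin arrays and 0.94 and 0.78 in the control arrays, so it moved with the drug. The same measure for Gapdh was 0.24 and 0.09 in the romidepsin arrays and 0.20 and 0.16 in the control arrays. It was thus higher with the drug within replicate 1 and lower within replicate 2. Actb itself was among the genes that fell. The part of the actin difference in the results was not tested gene by gene. With the actin value as a covariate 4013 genes passed, 3670 of them among the 6283 described next.

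Romidepsin at 30 nM changed 6283 of the 9868 tested genes, 63.7% of them. Of these 3488 rose (35.3% of all tested) and 2795 fell (28.3% of all tested), and 6276 changed in the same direction within both replicate numbers. Without the replicate block 2095 genes passed, 21.2% of those tested, with 1314 higher (13.3%) and 781 lower (7.91%), and all of them were among the 6283. At least 4-fold changes numbered 435 rises and 428 falls, and 134 and 131 of these reached 8-fold. The 2 romidepsin arrays lay on 1 side of the 2 control arrays in 49.9% of all tested genes, above in 28.2% and below in 21.7%, so groups that do not overlap are common here. The median change over all tested genes was 0.07. Arrays of the same number had nearly equal distributions as deposited, so a shift common to all genes could not have been seen. With shares this large, a gene list is described below by how its counts compare with 35.3% and 28.3%, and a count near those shares says nothing particular about the list. Counts without the block are to be set against 13.3% and 7.91%. Counts with the actin covariate are to be set against 2228 rises and 1785 falls among the 9868 genes.

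**Figure D1:**
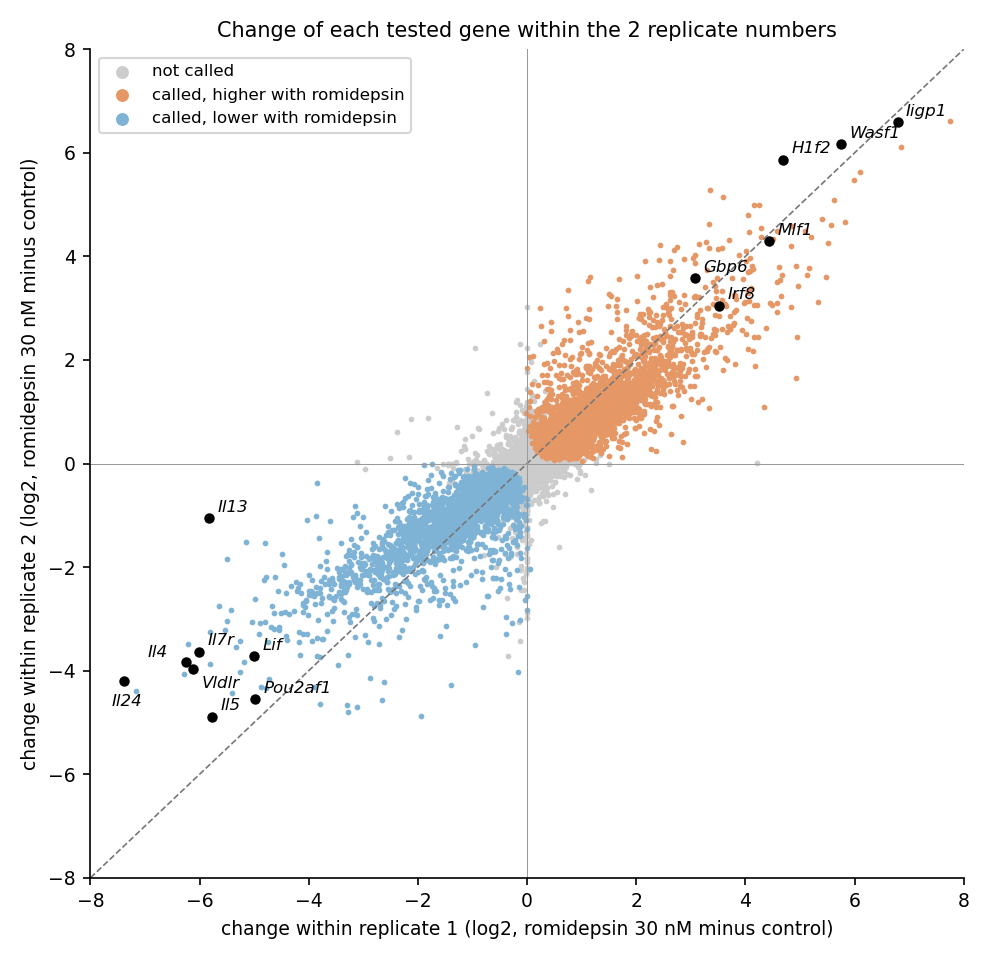
Change of each tested gene (log2, romidepsin 30 nM minus control) within replicate 1 on the horizontal axis and within replicate 2 on the vertical axis, with called genes in colour and the line of equal change dashed. The 6283 called genes lie in the 2 quadrants of equal sign with 7 exceptions, and the changes of replicate 1 are larger on the whole (ratio of the standard deviations 1.18).

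The largest rise among genes measured in both groups was that of Iigp1, an interferon-inducible GTPase that attacks the vacuoles of intracellular parasites. Iigp1 had 13.59 and 13.06 in the romidepsin arrays, against 6.80 and 6.48 in the control arrays, a change of 6.69 ± 0.45 or 103-fold (limma, adjusted p = 5.37e-08). H1f2, a linker histone that binds DNA where it leaves the nucleosome, had 11.86 and 11.22 with romidepsin, against 7.18 and 5.36 in control cells, a 38.8-fold rise (5.28 ± 0.34). Tex15, a gene of male germ cells needed for meiosis, stood at 9.50 and 9.40 with romidepsin and at 4.65 and 4.81 in control cells (26.3-fold). The groups did not overlap for any of these genes. The others of the 12 largest rises were Acbd7, 1500009L16Rik, Bex1, Mlf1, Mpzl1, Kyat3 (a kynurenine aminotransferase), Eaf2 (a partner of the elongation factor ELL), Mgst3 (a microsomal glutathione transferase) and Plagl1 (an imprinted zinc-finger factor), at 16.4-fold to 37.8-fold. All 12 also passed without the block.

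A further 386 genes rose from a control mean under the detection level. They were tested because at least 2 arrays of any group lay over it, and for 15 of the 386 the 30 nM arrays were needed to reach that number. By the naming rule the first of them were Npl (at least 47.8-fold), BC023105 (at least 38.8-fold), Prkar2b, a regulatory subunit of protein kinase A (at least 29.6-fold), Lrp11 (at least 28.2-fold), Wasf1 and Dzank1. Npl encodes a lyase that breaks down sialic acid and had 9.98 and 9.73 with romidepsin, against 3.12 and 3.63 in control cells. Wasf1, an activator of actin branching best known from neurons, had 8.40 and 8.43 with romidepsin, against 2.66 and 2.26 in control cells (at least 17.7-fold, adjusted p = 8.33e-10).

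The largest falls were those of the cytokine gene Il24 and of Serpinf1, an inhibitor of blood vessel growth. Il24 had 2.82 and 6.01 in the romidepsin arrays, against 10.21 and 10.21 in the control arrays, a change of -5.79 ± 0.58 (55.4-fold lower). Serpinf1 had 4.28 and 6.63 with romidepsin, against 11.45 and 11.04 in control cells (-5.79 ± 0.69). The 2 romidepsin arrays stood well apart from each other here, with replicate 1 lower, but both stood below both control arrays. The others of the 12 largest falls were Vldlr, a lipoprotein receptor, the cytokines Il4 and Lif, Gimap3, Lpxn, Il7r (the interleukin 7 receptor), Asb2, Tspan32, Lxn and Hdac7, at 20.3-fold to 33.1-fold, and all 12 passed without the block.

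Falls to a mean under the detection level numbered 222. Cd4 itself was among the first, with 2.75 and 4.14 in the romidepsin arrays, against 8.55 and 8.02 in the control arrays, at least 16.1-fold lower (adjusted p = 6.16e-06). The gene that gives the cells their name was thus under the detection level in both romidepsin arrays, and they differed from CD8 cells by Cd8a, which was at 4.01 and 4.70 here and at 9.92 and 11.08 in CD8 cells with the same dose. Stc2, Nlrc3 and the costimulatory receptor gene Cd27 fell at least 14.1-fold, 13.3-fold and 12.7-fold. Pou2af1 (at least 20.6-fold lower) and Igkv8-30 (at least 14.1-fold lower) are genes of B cells, and neither passed without the block (adjusted p = 0.156 and 0.334).

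**Figure D2:**
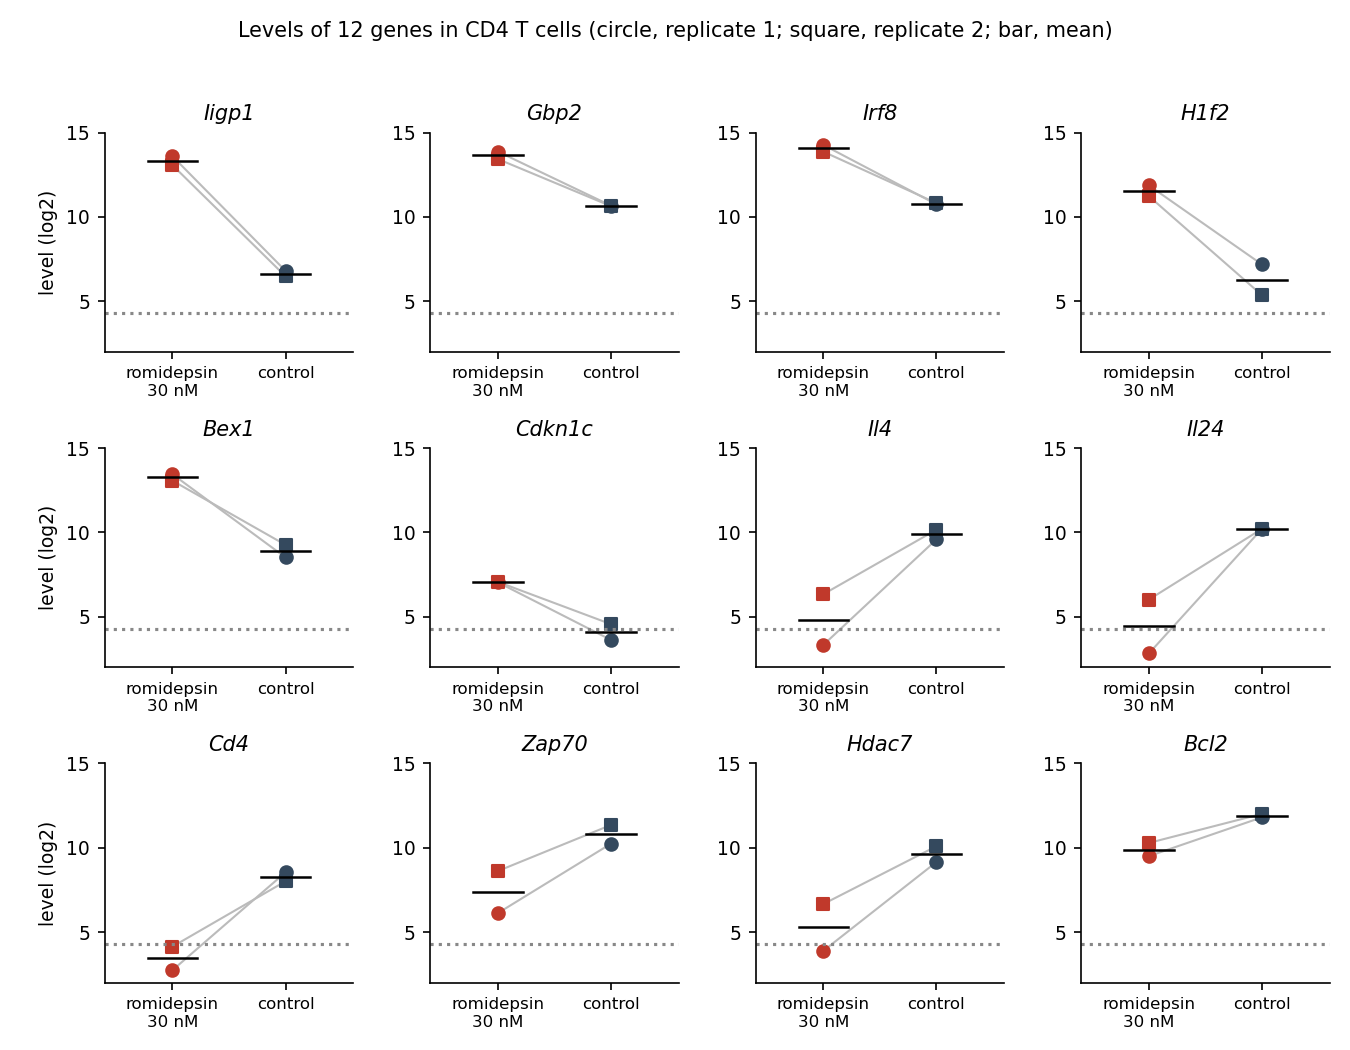
Levels (log2) of 12 genes in the romidepsin 30 nM arrays on the left of each panel and in the control arrays on the right, with replicate 1 as a circle, replicate 2 as a square, lines joining arrays of the same number, the mean as a bar and the detection level of 4.275 dotted. The groups do not overlap in any panel, and Il4, Il24, Zap70 and Hdac7 fall further in replicate 1.

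Among markers of other cells, those of B cells moved with the drug. Ighm, the immunoglobulin mu heavy chain, had 3.71 and 4.89 in the romidepsin arrays, against 7.50 and 9.54 in the control arrays. Cd79b, of the B cell receptor, had 3.46 and 5.16 with romidepsin, against 6.57 and 9.87 in control cells. Of 9 B cell markers on the array, 0 and 3 lay over the detection level in the romidepsin arrays and 2 and 6 in the control arrays, and their mean level was 2.57 and 3.44, against 3.41 and 6.11. Over the 6 tested, the median change was -0.265 within replicate 1 and -3.364 within replicate 2, so the fall of the list lay mostly in replicate 2. Cd79b, Ighm, Cd22 and Fcer2a fell, and none of them passed without the block. The control array of replicate 2 was the highest of the 4 in all of these genes. The part of B cells in the results was not tested, and in bulk RNA fewer cells of a type and less RNA per cell cannot be told apart.

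Markers of NK cells, macrophages and granulocytes, dendritic cells, red cells and platelets, and stroma averaged at most 3.46 in any of the 4 arrays. The NK marker Ncr1 and the macrophage markers Csf1r, Adgre1 and Cd14 were under the detection level in all 4. Klrd1, Cd68, Mpeg1 and Zbtb46 were tested and did not pass. Pecam1, an endothelial and leukocyte adhesion molecule, fell at least 2.75-fold, with 2.58 and 3.41 in romidepsin arrays and 5.28 and 6.20 in control arrays, and did not pass without the block (adjusted p = 0.14). Cd8b1 had 5.32 and 7.08 with romidepsin and 7.49 and 7.99 in control cells, and Cd8a had 4.01 and 4.70 with romidepsin and 5.09 and 6.07 in control cells. Both passed only with the block, and 1 other probe set of Cd8a moved the other way.

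The enzymes the drug acts on moved little by comparison. Hdac1 rose to 11.31 and 11.56 with romidepsin, against 10.43 and 10.65 in control cells (0.90 ± 0.11, 1.86-fold, adjusted p = 8.27e-06). Hdac2 and Hdac3, the other main class I enzymes, rose by 0.43 and 0.38, and neither passed without the block. Hdac8 fell at least 2.16-fold and was lost without the block (adjusted p = 0.56), with 3.40 and 4.93 in the romidepsin arrays overlapping 4.71 and 6.06 in the control arrays. Of 11 class I enzymes and partners of their complexes, 5 rose and 4 fell, near the background shares, and only Hdac1 passed without the block. Adding the actin covariate left 2 higher and 2 lower. The scaffold gene Sin3a rose by 0.68, while Mta1, of the NuRD complex, and Rest, a repressor of neuronal genes that recruits deacetylases, fell by 0.64 and 0.53. Rbbp4 rose by 0.40 and Mta2 fell by 0.97, both named after their values were seen. The median change of the list, -0.13, turned to 0.10 with the actin covariate.

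Hdac7, a class II deacetylase abundant in T cells and thymocytes, fell far more than the rest of its family. It had 3.90 and 6.67 in the romidepsin arrays, against 9.16 and 10.10 in the control arrays (-4.34 ± 0.51, 20.3-fold lower). Hdac6, a cytoplasmic tubulin deacetylase, rose 3.7-fold and was level in both romidepsin arrays at 8.64, against 5.98 and 7.52 in control cells. Of 11 tested deacetylases outside class I, 3 rose and 2 fell, against 35.3% and 28.3% over all genes, with 0 and 2 under the actin covariate. The smaller changes were Sirt7 (0.64 ± 0.15 higher), Sirt2 (0.93 higher, named after its values were seen) and Sirt6 (0.66 ± 0.15 lower), and none of the 3 passed without the block.

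Among 10 acetyltransferases and readers of acetyl-lysine, 3 rose and 3 fell, near the background shares of 35.3% and 28.3%. The falls were in 3 acetyltransferases. Kat2b (PCAF) had 6.45 and 8.61 with romidepsin, against 10.01 and 10.90 in control cells (-2.93 ± 0.31), and missed the threshold without the block (adjusted p = 0.0523). Crebbp had 8.30 and 8.71 with romidepsin, against 9.89 and 10.08 in control cells (2.78-fold lower), and its relative Ep300 was 1.99-fold lower. The rises, in Kat8, also an acetyltransferase, and in the readers Brd2 and Brd3, were at most 0.65 and were lost without the block. These 3 were named after their values were seen.

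Genes of the T cell receptor and of the signalling next to it fell in most members. Of 20 tested, 17 fell and 2 rose, against 28.3% and 35.3% over all genes, with a median change of -2.22 (-2.63 within replicate 1 and -1.82 within replicate 2). Without the block 11 fell and none rose, since Fyn, a kinase of the Src family, and the adaptor Bcl10 then missed the threshold (adjusted p = 0.239 and 0.743). Under the actin covariate 13 fell and 1 rose. Malt1 was the only member that did not pass. Fyn, Bcl10 and Malt1 were named after their values were seen.

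The largest of these falls lay in adaptors and kinases that carry the signal inwards. Trat1, an adaptor that stabilises the receptor complex, had 5.08 and 4.81 with romidepsin, against 9.25 and 8.51 in control cells (15.3-fold lower, adjusted p = 1.67e-07). Lcp2 (SLP-76), the scaffold that links the receptor to calcium signalling, had 7.10 and 9.09 with romidepsin, against 11.60 and 11.98 in control cells. Zap70, the kinase that binds the phosphorylated receptor, had 6.13 and 8.63, against 10.25 and 11.36, and missed the threshold without the block (adjusted p = 0.092). In all 3 genes the romidepsin arrays lay below both control arrays. Themis, which sets the strength of receptor signals in thymocytes, fell 15.3-fold, and Cd247, the zeta chain, fell 10.1-fold.

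The CD3 chains fell less. Cd3e had 7.26 and 7.66 in the romidepsin arrays, against 9.08 and 8.64 in the control arrays (2.64-fold lower). Cd3d and Cd3g fell 2.52-fold and 2.81-fold, and neither passed without the block (adjusted p = 0.158 and 0.161). All 7 markers of CD4 and T cells fell, Cd5 by 9.65-fold and Zbtb7b (ThPOK), the factor that commits thymocytes to the CD4 lineage, by 2.68-fold. The mean level of the 7 was 6.92 and 7.72 with romidepsin, against 9.76 and 9.94 in control cells.

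Costimulatory receptors fell in 8 of 9 tested genes, against 28.3% over all genes, with none higher by limma, also at an unadjusted p under 0.05. The same 8 fell without the block. Tnfrsf18 (GITR) had 9.31 and 10.99 with romidepsin, against 12.85 and 13.32 in control cells (7.65-fold lower). Cd2 fell 7.5-fold, Tnfrsf9 (4-1BB) fell 6.57-fold and Tnfrsf25 fell at least 3.32-fold. Cd27 had 2.94 and 4.07 in romidepsin arrays, against 7.66 and 8.23 in control arrays. Icos was the member that did not pass, at 8.81 and 11.05 with romidepsin and 9.20 and 10.54 in control cells, with its groups overlapping; it was named after its values were seen. Under the actin covariate 5 of the 9 fell.

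Of 13 inhibitory receptors and exhaustion genes, 7 fell and 1 rose, against 28.3% and 35.3% over all genes. Pdcd1 (PD-1) had 4.86 and 6.28 with romidepsin, against 7.95 and 8.18 in control cells (5.64-fold lower, adjusted p = 0.000429). Btla fell 7.76-fold, Cd200 fell 3.25-fold and Lag3 fell 2.45-fold, and these passed without the block. Entpd1 (CD39) fell at least 2.18-fold and missed the threshold without it (adjusted p = 0.148). The rise was in Nr4a1, a nuclear receptor induced by antigen signals, by 0.69; it was lost without the block and was named after its values were seen. Under the actin covariate 1 of the 13 fell and 2 rose.

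Of 22 tested cytokine and chemokine genes 11 fell and 3 rose, against 28.3% and 35.3% over all genes. Without the block 10 fell and 1 rose, and with the actin covariate 10 fell and 3 rose. Il4, the cytokine that drives the type 2 programme and antibody class switching, had 3.33 and 6.33 in the romidepsin arrays, against 9.59 and 10.16 in the control arrays (-5.04 ± 0.50, 32.9-fold lower, adjusted p = 1.22e-06). Il5, the growth factor of eosinophils, had 2.27 and 2.88 with romidepsin, against 8.04 and 7.76 in control cells, at least 12.3-fold lower. The groups were far apart in both genes.

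Il13, also of the type 2 group, had 2.67 and 7.60 with romidepsin, against 8.49 and 8.66 in control cells. It fell by 5.82 within replicate 1 and by 1.06 within replicate 2, so its size rests on 1 array. Il21 fell by 3.48 and Il10, an anti-inflammatory cytokine, fell by 3.33. Lif, a cytokine of the interleukin 6 family, had 6.91 and 7.58 with romidepsin, against 11.91 and 11.30 in control cells. Tgfb3 fell at least 7.74-fold, and Ltb, the membrane partner of lymphotoxin, fell by 3.43. Il13, Il21 and Ltb were named after their values were seen.

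Ifng, the main type 1 helper cytokine, had 9.63 and 12.52 with romidepsin and 9.55 and 11.26 in control cells, a difference of 0.67 ± 0.39 that did not pass (adjusted p = 0.145). The 3 rises were in Ccl5, Ccl4 and Tnf. Ccl5, a chemokine of memory and effector T cells, had 10.45 and 9.28 with romidepsin, against 6.96 and 6.23 in control cells (3.27 ± 0.49). Tnf and Ccl4 rose by 1.33 and 1.70 and were lost without the block (adjusted p = 0.0512 and 0.272). These 4 genes were named after their values were seen.

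Receptors for cytokines and the JAK-STAT components behind them fell in 22 of 30 tested genes and rose in 5, against 28.3% and 35.3% over all genes. Their median change was -1.39. Without the block 15 fell and 1 rose, and with the actin covariate 13 fell and 4 rose. Il7r, which carries the survival signal of interleukin 7, had 5.13 and 8.27 with romidepsin, against 11.14 and 11.90 in control cells. Il2rb, the signalling chain for interleukins 2 and 15, had 8.05 and 8.59 with romidepsin, against 11.42 and 11.24 in control cells (8.07-fold lower, adjusted p = 4.84e-07). Neither pair of groups overlapped. Il21r and Il6ra fell 9.89-fold and 9.42-fold, and Cish, a feedback inhibitor induced by STAT5, fell 5.15-fold.

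The 5 rises of this list were in Stat2, Il6st, Tyk2, Ifnar1 and Jak1, named after their values were seen. Stat2, a component of the interferon-activated factor ISGF3, had 6.89 and 6.81 with romidepsin, against 5.26 and 4.60 in control cells, and it alone of the 5 passed without the block. Il6st, the shared receptor chain of the interleukin 6 family, rose by 1.69. The rises of Tyk2, Ifnar1 and Jak1 were 0.87 or smaller.

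Of 25 helper lineage factors, 14 fell and 5 rose, against 28.3% and 35.3% over all genes, with 9 and 1 without the block. The median change was -1.09, and under the actin covariate it was -0.40 with 10 lower and 2 higher. Irf8, an interferon regulatory factor, had the largest of the 5 rises. It had 14.26 and 13.86 in the romidepsin arrays, against 10.74 and 10.81 in the control arrays (9.73-fold, adjusted p = 8.27e-08). Ikzf1 (Ikaros), a zinc-finger regulator of lymphocytes, had 7.16 and 8.26 with romidepsin, against 10.74 and 10.68 in control cells. Gata3, the master factor of the type 2 helper cell, had 8.72 and 10.54, against 11.45 and 12.87 (5.79-fold lower), and was lost without the block (adjusted p = 0.125). Klf2, Bcl6, Eomes and Id3 rose by 0.71 to 1.31, all named after their values were seen and all lost without the block. Maf, which drives Il4, fell 6.16-fold, and Batf fell 5.47-fold. Tbx21 (T-bet), the type 1 factor, did not pass at a difference of -0.14; it was named after its values were seen.

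Among 19 AP-1, EGR, NFAT and NF-kappaB genes 2 rose and 7 fell, against 35.3% and 28.3% over all genes. Without the block 2 rose and 1 fell, against 13.3% and 7.91%. Both rises were immediate early genes. Fos had 12.05 and 12.10 with romidepsin, against 8.46 and 10.29 in control cells (2.70 ± 0.38), and Egr1 had 12.84 and 13.02, against 11.41 and 12.03 (1.21 ± 0.22). Their groups did not overlap, and both passed without the block. Tnfaip3 (A20), an inhibitor of NF-kappaB, fell 2.96-fold, Jund fell 1.97-fold and Fosl1 fell at least 1.42-fold, and these 3 were lost without the block.

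Homing and killing genes fell as well. Of 18 chemokine receptor and adhesion genes 10 fell and 1 rose, against 28.3% and 35.3% over all genes, with 5 and 1 without the block. Itgal, the alpha chain of the integrin LFA-1, had 8.40 and 10.11 with romidepsin, against 11.78 and 12.28 in control cells (6.86-fold lower). Selplg, the ligand of P-selectin, fell 5.71-fold, Cxcr3, a receptor of type 1 cells, at least 4.01-fold and Ccr8 at least 1.67-fold. Cxcr6 fell 11.6-fold with the romidepsin arrays at 3.28 and 7.67, and was lost without the block (adjusted p = 0.19). The rise was in Cd69, an early activation marker that keeps cells in tissue, at 12.31 and 11.64 with romidepsin and 9.62 and 10.04 in control cells; it was named after its values were seen.

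Of 11 cytotoxic granule genes 7 fell and 1 rose, against 28.3% and 35.3% over all genes. The rise was in Lamp1, a lysosomal membrane protein, named after its values were seen and lost without the block. Without the block 4 fell. Unc13d, needed to release granules, had 5.22 and 5.37 with romidepsin, against 8.37 and 8.29 in control cells (8.17-fold lower, adjusted p = 8.83e-08). Prf1 (perforin) fell 5.15-fold. Nkg7, Fasl and Gzma (granzyme A) fell 9.02-fold, 7.92-fold and 5.44-fold, and all 3 were lost without the block. Under the actin covariate 1 of the 11 fell and 1 rose.

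**Figure D3:**
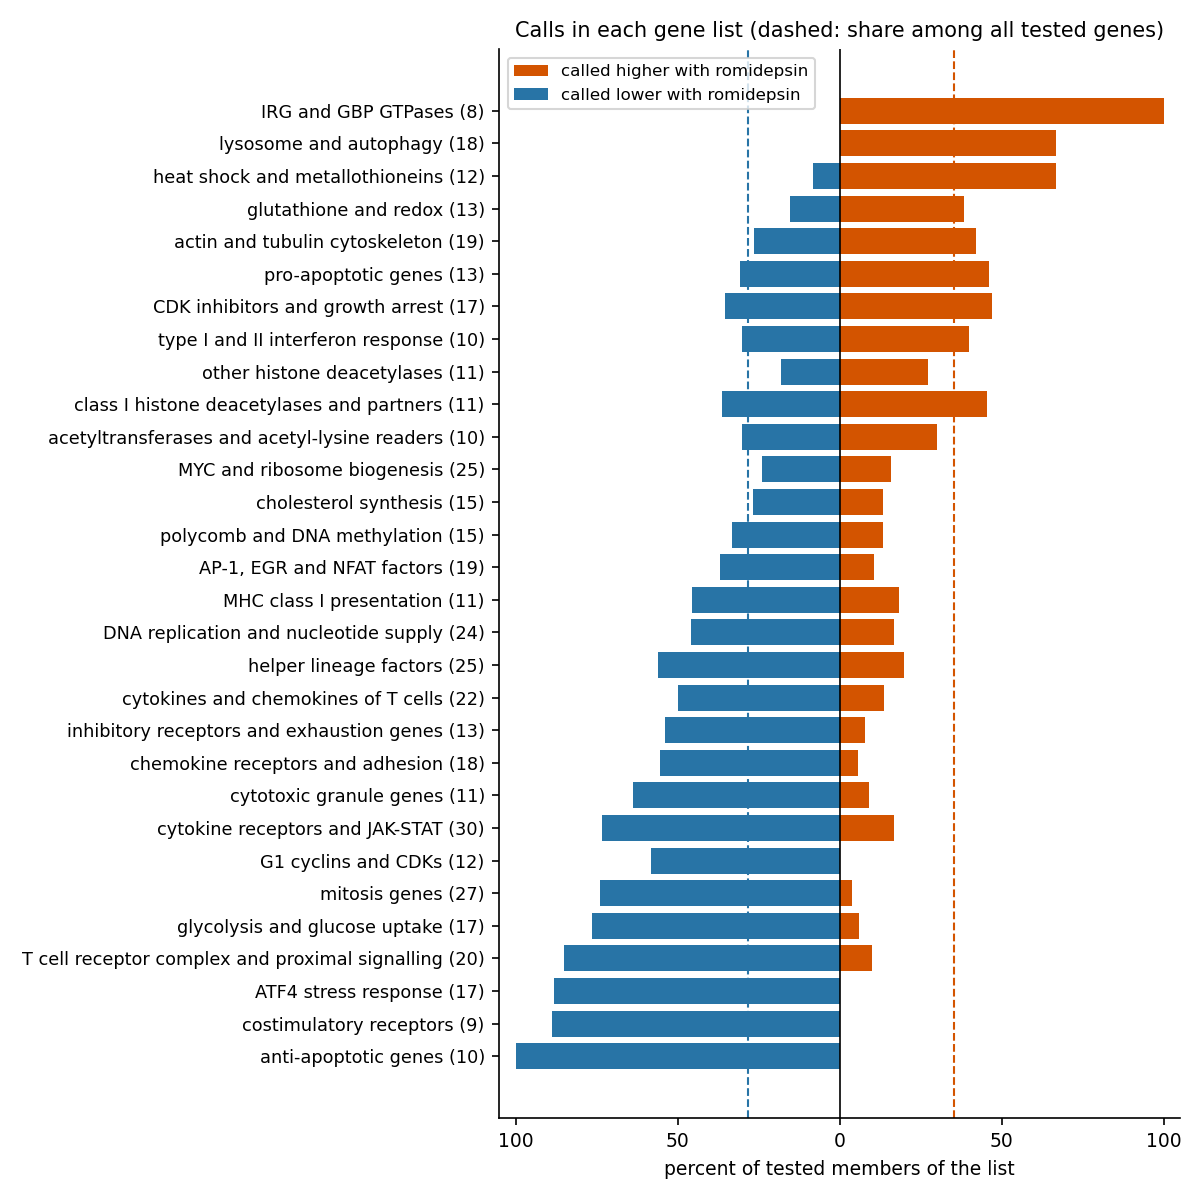
Percent of the tested members of each gene list that rose (orange, to the right) or fell (blue, to the left) with romidepsin 30 nM, with the number of tested members after each name and dashed lines at 35.3% and 28.3%, the shares among all tested genes. All 8 tested GTPases of the IRG and GBP families rose, and all 10 tested anti-apoptotic genes fell.

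Against these falls, all tested members of 2 families of interferon-induced GTPases rose. The immunity-related GTPases (IRG) and the guanylate-binding proteins (GBP) coat vacuoles that hold parasites or bacteria, and interferon gamma is their classical inducer. Of 13 listed members 8 were on the array, and the others were not measured. All 8 rose, with a median change of 2.35 against 0.07 over all genes, and 7 of them passed without the block and with the actin covariate. Because members of each family are near copies, a probe set may also detect a relative.

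Gbp2 had 13.87 and 13.42 in the romidepsin arrays, against 10.66 and 10.63 in the control arrays (7.99-fold, adjusted p = 1.01e-05). Irgm2 had 11.86 and 11.94 with romidepsin, against 8.70 and 9.47 in control cells (7.04-fold), and its relative Irgm1 had 10.37 and 10.45, against 8.41 and 8.66 (3.68-fold). Gbp6 had 10.27 and 10.01 with romidepsin, against 7.20 and 6.44 in control cells (3.33 ± 0.21). In all of these the groups lay far apart. Igtp and Gbp7 rose by 1.48 and 1.47, and Gbp3, by 0.49, was the member lost without the block (adjusted p = 0.343). These 3 complete the tested members and were named after their values were seen.

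RefSeq promoters were at hand for 6 of the 8 genes, and the stretches that hold a match to the interferon-stimulated response element are shown because all 6 had one. Each is 80 bases of the GRCm38.p6 genome on the strand of the gene, 5′ to 3′, with capitals on each match to GAAA, any 2 bases and GAAA again, or to its reverse complement. The stretches are chr11:58199476-58199555 (plus strand) for Igtp, chr11:48871421-48871500 (minus) for Irgm1, chr11:58214878-58214957 (plus) for Irgm2, chr3:142620569-142620648 (plus) for Gbp2, chr3:142559964-142560043 (plus) for Gbp3 and chr3:142530248-142530327 (plus) for Gbp7.
Igtp: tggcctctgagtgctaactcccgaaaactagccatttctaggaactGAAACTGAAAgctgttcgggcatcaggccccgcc
Irgm1: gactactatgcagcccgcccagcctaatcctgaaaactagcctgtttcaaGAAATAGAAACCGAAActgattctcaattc
Irgm2: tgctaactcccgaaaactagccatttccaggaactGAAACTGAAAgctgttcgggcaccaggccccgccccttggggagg
Gbp2: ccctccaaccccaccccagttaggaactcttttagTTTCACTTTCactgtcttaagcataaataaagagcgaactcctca
Gbp3: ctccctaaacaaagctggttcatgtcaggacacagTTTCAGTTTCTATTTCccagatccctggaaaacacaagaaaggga
Gbp7: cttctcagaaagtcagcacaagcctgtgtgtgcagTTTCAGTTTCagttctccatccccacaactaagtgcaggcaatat

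Matches were searched on both strands of the 250 bases before each gene's start, and the motifs were chosen with earlier results of these data known. Irgm1 and Gbp3 each hold 2 matches that overlap. The first matching base lies 24 to 64 bases before the start in these 6 genes. The same letters occur in 206 of the 8106 tested genes with a RefSeq promoter, 2.54%, and in 2.86% of the genes that rose at least 4-fold and 3.09% of those that fell at least 4-fold. The gamma-activated site TTCNNNGAA was in 3 of the 6, against 5.81% of all. A match is a description of the sequence, and no binding was measured.

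The wider interferon response did not rise as a group. Of 10 tested genes 4 rose and 3 fell, near the background shares, while the other 10 on the array, Mx1, Mx2, Irf7, Rsad2 and the Oas family among them, were too dim to be tested. Irf1, the factor first induced by interferon gamma, had 10.997 and 11.531 with romidepsin, against 8.33 and 9.74 in control cells (4.69-fold). Ifih1 (MDA5), a sensor of viral RNA, rose 2.31-fold, while its relatives Ddx58 (RIG-I) and Dhx58 fell at least 3.81-fold and by 1.23, and Irf9, the DNA-binding part of ISGF3, fell by 0.80. Dhx58 and Irf9 were lost without the block, as were the rises of Bst2 (0.75) and Usp18 (0.60), both named after their values were seen.

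Of 11 MHC class I presentation genes, many of which interferon also induces, 5 fell and 2 rose, against 28.3% and 35.3% over all genes. Without the block 3 fell and 0 rose. Psmb10, an immunoproteasome subunit, had 7.17 and 7.66 with romidepsin, against 9.44 and 9.79 in control cells (4.59-fold lower), and the trimming enzyme Erap1 fell 4.39-fold. Tap2 (2.53-fold lower) was lost without the block (adjusted p = 0.259), and Tapbp fell by 0.84, with another of its probe sets moving the other way without passing. Nlrc5, the transactivator of class I genes, rose by 0.78 and was lost without the block (adjusted p = 0.0832). Psmb8 fell by 0.94 and Tap1 rose by 0.45, both named after their values were seen and lost without the block.

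Several genes normally read in neurons or germ cells were among the strongest rises. Of 26 neuronal genes on the array 15 were tested, and 8 of these had a control mean under the detection level. Genes were tested where at least 2 arrays of any group, the 30 nM group included, lay over that level. For 1 of the 15 the 30 nM arrays were needed to reach that number, so the count of the list is not read. The 11 others, Snap25, Gap43 and the neurofilament genes Nefl and Nefm among them, were too dim. Bex1, a small adaptor of neurotrophin signalling, had 13.44 and 13.06 in the romidepsin arrays, against 8.51 and 9.26 in the control arrays (20.7-fold). Tubb2b, a tubulin of developing neurons, had 10.62 and 9.97, against 6.544 and 6.003 (16.2-fold), and Tubb2a had 11.29 and 11.30, against 7.24 and 7.98 (12.9-fold). The motor gene Kif5c rose at least 12.1-fold, with 7.90 and 7.85 with romidepsin and 2.34 and 3.23 in control cells. Bex2 rose at least 7.37-fold.

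Of 14 testis and germline genes on the array 3 were tested, Tex15 and, dimly, Ddx4 and Stag3. Of the 3, 2 had a control mean under the detection level, and 1 was tested only because the 30 nM arrays lay over it. Their count is therefore not read. Ddx4, the germ cell helicase Vasa, had 4.83 and 4.16 with romidepsin, against 2.27 and 2.27 in control cells, at least 1.17-fold higher. Stag3, the meiotic cohesin subunit, rose at least 1.47-fold and was lost without the block (adjusted p = 0.111). Dazl, Sycp1, Sycp3, Mael and the 7 others were too dim to be tested.

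Cell cycle inhibitors moved in both directions. Of 17 inhibitors and growth arrest genes 8 rose and 6 fell, against 35.3% and 28.3% over all genes, with 5 and 3 without the block. Of the 17, 3 had a control mean under the detection level, so the count is given without a reading. Cdkn1c (p57) had 7.03 and 7.06 with romidepsin, against 3.62 and 4.56 in control cells, at least 6.83-fold higher, and Cdkn2b (p15) had 7.06 and 6.23, against 2.48 and 3.13, at least 5.17-fold higher. Cdkn2a rose at least 1.58-fold, and Gadd45a, induced by DNA damage, had 10.15 and 10.16, against 7.80 and 7.83 (5.06-fold). The groups were apart in all 4, although Cdkn2a was over the detection level in 1 of the 4 arrays. Cdkn1b (p27) fell 3.01-fold, and Cdkn1a (p21), often named as raised by inhibitors of deacetylases, fell to 10.42 and 10.91, against 11.82 and 11.94 in control cells (-1.21 ± 0.26, adjusted p = 0.000755). Cdkn1a, and Rb1, which rose by 1.49, were named after their values were seen; both passed without the block.

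Many genes that drive the cycle fell. Of 12 G1 cyclins, kinases and E2F factors 7 fell and none rose by limma, against 28.3% and 35.3% over all genes, and 2 fell without the block. Fitted with the actin covariate, 3 fell and 1 rose, with a median change of -0.30 in place of -0.55. None of the 12 was higher at an unadjusted p under 0.05 either. Cdk6 had 9.24 and 9.87 with romidepsin, against 12.06 and 11.72 in control cells (5.03-fold lower, adjusted p = 3.63e-06), and Ccnd2 fell 1.82-fold. E2f2 and Ccnd3 fell 3.24-fold and 2.19-fold and were lost without the block. In DNA replication and nucleotide supply 11 of 24 fell and 4 rose, against 28.3% and 35.3% over all genes. Without the block 2 fell and 0 rose, and with the actin covariate 3 fell and 3 rose. Rrm2, of ribonucleotide reductase, had 10.38 and 11.17, against 12.51 and 12.43 (3.24-fold lower). Tk1 (6.52-fold lower), Mcm2, Mcm3 and the clamp loader Rfc4, which rose by 0.97, were lost without the block. Cdc6, Prim1 and Rpa1 rose by 0.56 to 0.61, were lost without it too and were named after their values were seen.

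Mitosis genes fell in 20 of 27 and rose in 1, against 28.3% and 35.3% over all genes, with a median change of -0.84. The rise was in Bub1, named after its values were seen and lost without the block. Only 4 of the falls passed without the block, and 13 passed with the actin covariate. Mki67, the proliferation antigen Ki-67, had 9.18 and 10.78 in the romidepsin arrays, against 11.54 and 12.25 in the control arrays (-1.92 ± 0.28, adjusted p = 2.75e-05, 0.107 without the block). Plk1, the polo kinase of mitotic entry, had 7.56 and 8.18, against 9.16 and 9.69 (2.94-fold lower), and held without the block (adjusted p = 0.00878). Cenpa, Aurka and Nusap1 fell 2.94-fold, 2.84-fold and 2.73-fold and were lost without it. In each of these 5 genes the replicate 2 array stood above the replicate 1 array in both groups.

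The promoters of 4 of these genes are shown for the CCAAT box, the binding site of the factor NF-Y, which is common in genes of mitosis. Each is 120 bases within the 250 before the start, on the strand of the gene, 5′ to 3′, from RefSeq on GRCm38.p6, with CCAAT or its reverse complement in capitals. They are chr7:135716468-135716587 (minus strand) for Mki67, chr5:30666757-30666876 (plus) for Cenpa, chr7:122159315-122159434 (plus) for Plk1 and chr2:172370571-172370690 (minus) for Aurka.
Mki67: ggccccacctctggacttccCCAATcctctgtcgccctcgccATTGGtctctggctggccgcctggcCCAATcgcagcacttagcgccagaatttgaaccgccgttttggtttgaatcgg
Cenpa: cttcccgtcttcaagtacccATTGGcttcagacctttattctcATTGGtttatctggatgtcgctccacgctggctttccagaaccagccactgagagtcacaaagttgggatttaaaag
Plk1: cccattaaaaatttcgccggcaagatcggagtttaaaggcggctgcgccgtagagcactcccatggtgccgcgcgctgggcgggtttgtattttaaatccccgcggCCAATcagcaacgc
Aurka: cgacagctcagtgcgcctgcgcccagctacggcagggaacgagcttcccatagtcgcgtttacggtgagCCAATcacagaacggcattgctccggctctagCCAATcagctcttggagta

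CCAAT occurred in the 250 bases before the start of 19 of the 22 mitosis genes with a promoter (86.4%), against 37.2% of all tested genes with one. The cell cycle element TTTGAA occurred in 7 of the 22, against 10.4%. Among all genes the GC box GGGCGG was in 68.9% of promoters of genes that rose at least 4-fold, in 41.0% of those that fell at least 4-fold and in 61.9% of all. CCAAT was in 40.3% and 23.5% of the same 2 sets. These shares describe the sequences of genes chosen by their change.

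Myc, the driver of growth in activated T cells, had 7.36 and 9.79 with romidepsin, against 10.21 and 12.03 in control cells (5.83-fold lower), and was lost without the block (adjusted p = 0.142). Mxd1, which competes with MYC for its partner MAX, rose to 9.23 and 9.81, against 8.07 and 7.98 in control cells (2.82-fold). The genes of ribosome production that MYC is known to drive were mixed. Of 25 genes in the MYC and ribosome list 6 fell and 4 rose, below both background shares, and 15 did not pass. Without the block 1 fell and 1 rose, and 3 and 2 did with the covariate. Dkc1 and Nop56 fell by 1.21 and 0.97, and Nop2 rose by 0.67 but not with the actin covariate (-0.01). Nop58 and Nop14 rose by 0.39 and 0.58, were named after their values were seen and, like Nop2 and Nop56, were lost without the block.

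Most genes of glucose use fell. Of 17 tested genes of glycolysis and glucose uptake 13 fell and 1 rose, against 28.3% and 35.3% over all genes. Without the block 9 fell and 1 rose, and with the actin covariate 8 fell and 1 rose. Pfkl, a subunit of phosphofructokinase, had 7.11 and 6.91 with romidepsin, against 9.26 and 8.98 in control cells (4.32-fold lower), and Tpi1 had 13.10 and 13.14, against 15.14 and 14.46 (3.19-fold lower). The glucose transporter Slc2a1 fell 2.41-fold and the lactate exporter Slc16a3 fell 5.48-fold. The rise was in Eno2, the enolase of neurons, at 8.01 and 7.49 with romidepsin and 5.13 and 6.10 in control cells (4.4-fold). Cholesterol synthesis moved little, with 2 of 15 higher and 4 lower, against 35.3% and 28.3% over all genes. Its named changes were Mvk (1.68 higher), Srebf2 (0.89 lower), Lss (0.71 lower) and Cyp51 (0.37 lower), and of these only Lss passed without the block. Fdft1 rose by 0.55 and Insig1 fell by 0.45, both named after their values were seen and lost without the block.

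Targets of ATF4, the factor of amino acid shortage and endoplasmic reticulum stress, fell in 15 of 17 tested genes, against 28.3% over all genes. None was higher by limma, also at an unadjusted p under 0.05, and 11 fell without the block. Under the actin covariate 10 fell. Vldlr had 4.49 and 4.21 with romidepsin, against 10.61 and 8.18 in control cells (33.1-fold lower), and Trib3, a pseudokinase, had 5.19 and 4.97, against 8.30 and 7.88 (8.09-fold lower). Stc2 had 3.47 and 4.50, against 8.39 and 7.80. Nupr1 fell at least 2.82-fold and Atf5 fell 5.94-fold. Ddit3 (CHOP) and the chaperone Hspa5 were the members that did not pass, at differences of 0.17 and 0.15; they were named after their values were seen.

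Heat shock and metal-binding genes rose in 8 of 12, with 1 lower, but 2 of the 12, Hspa1a among them, had a control mean under the detection level, so the count is given without a reading. The inducible HSP70 gene Hspa1b had 11.96 and 11.37 with romidepsin, against 7.83 and 7.57 in control cells (15.7-fold), and its near copy Hspa1a rose at least 11.4-fold, so a probe set of one may detect the other. The metallothioneins Mt1 and Mt2 rose 2.1-fold and 2.26-fold, and Hmox1, the oxidative stress gene of the list, fell 1.99-fold. Without the block 4 rose and 1 fell, and with the actin covariate 3 rose and none fell. Of 13 glutathione and redox genes 5 rose, near the background share, and 2 fell, 2 of the 13 having a control mean under the detection level. Mgst3 had 11.09 and 11.24, against 6.44 and 7.70 (17-fold), Gsta4 rose at least 14.3-fold, and Txnip, an inhibitor of thioredoxin, had 13.65 and 12.74, against 10.24 and 9.66 (9.5-fold). Gclm and Gstp1 rose by 1.19 and 0.80, and Gclm was lost without the block. Gpx1 and Gpx4 fell by 0.69 and 0.39, were lost without it and were named after their values were seen.

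All 10 anti-apoptotic genes tested fell, against 28.3% of all genes, with a median change of -1.35 that was -1.32 within replicate 1 and -1.38 within replicate 2. Without the block 5 fell, and with the actin covariate 6 fell. Bcl2, which guards the mitochondrial membrane, had 9.51 and 10.29 with romidepsin, against 11.81 and 12.02 in control cells (4.04-fold lower, adjusted p = 1.57e-06). Cflar (c-FLIP), the brake on caspase 8, had 6.11 and 7.09, against 9.74 and 9.65 (8.56-fold lower), and Bcl2l1 (BCL-XL) had 6.88 and 7.39, against 8.83 and 9.26 (3.75-fold lower). The groups did not overlap in these 3. Birc3 and Bcl2l2 fell 5.99-fold and 2.72-fold, and all 5 named genes passed without the block.

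The pro-apoptotic genes were divided, with 6 of 13 higher and 4 lower, against 35.3% and 28.3% over all genes, and 3 and 0 without the block. Bmf, a BH3-only protein that binds BCL2, had 7.78 and 7.02 with romidepsin, against 4.34 and 4.85 in control cells (6.97-fold), and Bcl2l11 (BIM) had 9.226 and 10.002, against 7.38 and 8.12 (3.64-fold). Both passed without the block. Casp8 had 7.16 and 9.09, against 9.895 and 11.003 (5.01-fold lower), and Bak1 fell 3.98-fold. Casp9 rose by 1.21. These last 3 were lost without the block (adjusted p = 0.101 for Casp8, 0.0545 for Bak1 and 0.39 for Casp9). Bik and Bbc3 (PUMA) fell by 0.46 and 0.38, were lost without it as well and were named after their values were seen.

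Lysosome and autophagy genes rose in 12 of 18 with none lower by limma, also at an unadjusted p under 0.05, against 35.3% higher over all genes, and 6 rose without the block. Under the actin covariate 9 rose. Ctsl, the protease cathepsin L, had 10.58 and 10.71 with romidepsin, against 8.07 and 8.11 in control cells (5.89-fold, adjusted p = 1.42e-07). Map1lc3a, an LC3 protein of the autophagosome membrane, had 10.40 and 10.25, against 7.60 and 8.65 (4.6-fold). Wipi1, Lamp2 and Atg5 rose 4.55-fold, 3.65-fold and 2.56-fold, and all 5 passed without the block.

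Chromatin genes outside the acetylation machinery moved singly. Of 15 polycomb and DNA methylation genes 5 fell and 2 rose (2 and 1 without the block), below the background share of rises. Dnmt3a, a DNA methyltransferase of de novo methylation, had 5.88 and 6.81 with romidepsin, against 8.57 and 8.98 in control cells (5.38-fold lower), and Tet1, which oxidises methylcytosine, fell at least 3.71-fold. Cbx2 and Ezh1 rose by 0.67 and 0.47 and Tet2 fell by 0.63, and of these Cbx2 passed without the block. Rnf2 and Uhrf1 fell by 0.24 and 0.32, were named after their values were seen and were lost without it. Of 19 actin and tubulin genes 8 rose and 5 fell, near the background shares, with 4 and 3 without the block and 5 and 2 under the covariate. Myh10, non-muscle myosin IIB, had 7.90 and 7.60, against 5.67 and 4.66 (6-fold), while Myo6, a myosin that walks to the minus end of actin, had 7.11 and 8.27, against 11.06 and 11.70 (12.9-fold lower) and Espn fell at least 4.6-fold. Tubb6, Tubb5 and Actb fell by 1.59, 0.67 and 0.39, of which Tubb6 passed without the block; the 3 were named after their values were seen.

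The same cells were also given lower doses, which share the control arrays with the 30 nM group. Against control, 91 genes passed at 2 nM (0.922%), 4758 at 10 nM (48.2%) and 6283 at 30 nM (63.7%). Without the block 3, 852 and 2095 passed. Of the 435 genes that rose at least 4-fold at 30 nM, the median change was 0.33 at 2 nM, 1.97 at 10 nM and 2.56 at 30 nM, and of the 428 that fell at least 4-fold it was -0.17, -1.68 and -2.58. These genes were chosen at 30 nM, so the last value in each row is high by choice. H1f2 already stood at 9.26 and 7.35 at 2 nM and passed there (adjusted p = 0.0134), and Wasf1 (4.29 and 3.68 at 2 nM) and 1500009L16Rik (7.17 and 6.35) passed as well, though without the block 1500009L16Rik alone of the 3 did, while Iigp1 (6.92 and 7.63 at 2 nM) did not.

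Set directly against 10 nM, the 30 nM group differed in 1056 genes (10.7%), of which 635 were higher (6.43%) and 421 lower (4.27%), but in 12 without the block (0.122%). The count fell to 74 without replicate 1 of the 30 nM group and to 22 without replicate 2 of the 10 nM group, so it rests on those arrays. Ufsp1 had 6.62 and 6.82 at 30 nM, against 2.59 and 3.67 at 10 nM (3.59 ± 0.27, adjusted p = 5.01e-06). Its control arrays stood at 2.58 and 3.12, so of the 3 doses it was over the detection level at 30 nM alone. BC023105, Armc2, Elovl2 and Derl3 followed, at 2.47 to 3.23 higher. The genes furthest below their 10 nM level were Il24 (-2.87 ± 0.58), Cd4 (-2.53 ± 0.59), Lif, Il10 and Themis. Of these 10 genes only Ufsp1 and Armc2 passed without the block, and none of the 5 lower ones did (adjusted p = 0.228 to 0.99).

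Il24 fell by steps, with 9.62 and 10.39 at 2 nM, 5.996 and 8.579 at 10 nM and 2.82 and 6.01 at 30 nM. Cd4 did likewise, with 8.47 and 7.84 at 2 nM, 4.83 and 7.12 at 10 nM and 2.75 and 4.14 at 30 nM. Il10, at 6.84 and 8.17 with 10 nM, had not passed against control there (adjusted p = 0.271). Of the anti-apoptotic genes 5 were lower at 30 nM than at 10 nM and none higher by limma, also at an unadjusted p under 0.05, but none of the 5 without the block, with Bcl2 at 10.44 and 11.31 at 10 nM (adjusted p = 0.0143 for the step, 0.705 without the block) and Cflar at 7.56 and 8.37 (adjusted p = 0.00976, 0.17 without the block). Of the IRG and GBP genes 3 were higher, and none of them without the block, with Gbp2 at 12.97 and 11.44 at 10 nM (adjusted p = 0.0315, 0.527 without the block) and Gbp6 at 9.37 and 8.26 (adjusted p = 0.00485, 0.354 without the block).

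**Figure D4:**
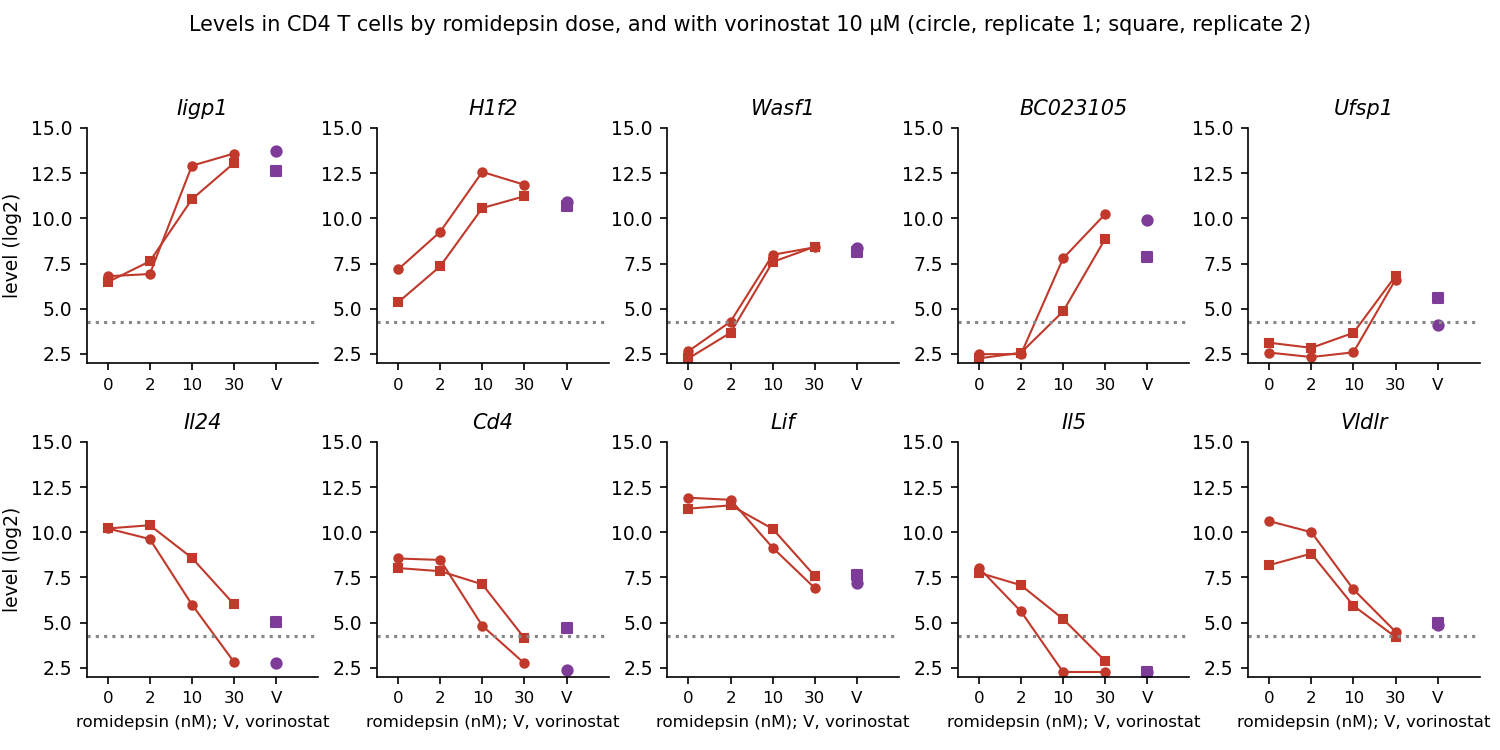
Levels (log2) of 10 genes in CD4 cells at 0 (control), 2, 10 and 30 nM romidepsin, joined by lines, and with vorinostat 10 µM (V, purple), with replicate 1 as circles, replicate 2 as squares and the detection level of 4.275 dotted. Most of the change lies between 2 and 10 nM for Iigp1 and Wasf1, H1f2 is already higher at 2 nM, and Ufsp1 is over the detection level at 30 nM but not at 0, 2 or 10 nM.

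Vorinostat, a hydroxamic acid that inhibits deacetylases of several classes, was given to the same cells at 10 µM as its highest dose. The drugs differ in structure, in dose and in potency, so their levels are set side by side. Against control 6039 genes passed with vorinostat (61.2%), and the 435 and 428 genes chosen at 30 nM romidepsin had medians of 2.24 and -2.62 with vorinostat. Romidepsin at 30 nM differed from vorinostat at 10 µM in 5 genes (0.0507%), all higher with romidepsin, and in 3 without the block (0.0304%), Ufsp1 and Crispld2 being lost. At an unadjusted p under 0.05, 651 genes were higher and 214 lower with romidepsin. The count was 97 (70 higher, 27 lower) with the actin covariate, 32 (22 higher, 10 lower) with no filter on dim genes and 0 with CD4 arrays only. With array medians made equal 6 passed, 5 higher and 1 lower. It rose to between 9 and 14 as single arrays were left out.

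The 5 genes were Tmem30b, Ufsp1, Crispld2, Ankrd35 and Kcnn1, all dim. Tmem30b had 5.73 and 5.59 with romidepsin, against 2.96 and 4.30 with vorinostat (2.03 ± 0.27, adjusted p = 0.00809). Ufsp1 had 6.62 and 6.82 with romidepsin, against 4.11 and 5.61 with vorinostat (1.86 ± 0.27). In both the groups did not overlap. The 95% interval of the difference lay within 1 log2 unit of 0 for 8821 genes, 89.4% of those tested, and its median half-width was 0.35. For the remaining genes a difference of 2-fold or more is within the interval. Iigp1 stood at 13.59 and 13.06 with romidepsin and at 13.71 and 12.61 with vorinostat, and Il4 at 3.33 and 6.33 with romidepsin and at 2.71 and 5.55 with vorinostat.

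In CD8 T cells the same dose changed 5173 genes against the CD8 controls (52.4%), with 2742 higher (27.8%) and 2431 lower (24.6%), and 1068 without the block (10.8%). Of all genes, 3841 changed in the same direction in CD4 and CD8 cells, which is 61.1% of the CD4 changes and 74.3% of the CD8 changes, and 167 changed in opposite directions. The CD4 and CD8 groups share no arrays, but replicate numbers differ in sex in both. The response differed between the cell types in 1733 genes (17.6%), of which 900 were more positive in CD4 cells (9.12%) and 833 more negative (8.44%). Without the block 99 differed, 15 and 84. Leaving out CD4 romidepsin replicate 1 left 740 (289 more positive, 451 more negative), CD4 control replicate 1 853, CD8 romidepsin replicate 2 936 and CD8 control replicate 1 1017, so the count and its balance rest on single arrays.

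Of the 8 IRG and GBP genes 7 rose in CD8 cells too, with and without the block, with a median change of 1.76. Gbp2 had 13.71 and 12.34 in CD8 cells with romidepsin, against 10.06 and 10.35 in their controls. Of the 10 anti-apoptotic genes 5 fell in CD8 cells, and in 5 the response was more negative in CD4 cells. Without the block these counts were 0 and 2. Bcl2 had 9.70 and 10.47 in CD8 cells with romidepsin and 10.16 and 10.53 in their controls, and the CD4 response minus the CD8 response was -1.75 ± 0.29 (adjusted p = 0.00159, 0.206 without the block). Mitosis genes fell in 20 of 27 in CD4 cells and in 24 of 27 in CD8 cells, and in 4 and 3 without the block.

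The largest difference of response was that of Myo6, which went in opposite directions. It fell in CD4 cells as given above and rose in CD8 cells to 6.52 and 6.51, against 2.78 and 2.52 in CD8 controls, a difference of responses of -7.56 ± 0.56 (adjusted p = 2.11e-06). Il24, Il5, Il4 and Cysltr1, a leukotriene receptor, followed with -5.81 to -5.02, and all were under the detection level in every CD8 array of both groups, so no fall could be seen there. Among cytokine and chemokine genes the CD4 response was the more negative in 11 of 22, against 8.44% of all tested genes. Members under the detection level in the CD8 arrays, Il4 and Il5 among them, could not fall there, so this count is given without a reading. In CD8 cells 6 of the 22 rose and 2 fell, against 27.8% and 24.6% of all, so the rises were near the background share. Without the block the response was more negative in 3, and 2 rose and 1 fell in CD8 cells. Of the 5 named genes only Il4 was lost without it (adjusted p = 0.17).

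The differences in the other direction were led by Nebl (4.01), 1700061F12Rik (3.93), 1500009L16Rik (3.37), Calhm6 (3.27) and Ifi209 (3.18). Nebl, Calhm6 and Ifi209 were lost without the block (adjusted p = 0.216, 0.663 and 0.805). 1700061F12Rik had 6.16 and 6.34 in CD4 cells with romidepsin, against 2.28 and 2.33 in CD4 controls, and 2.31 and 2.26 in CD8 cells with romidepsin, against 2.27 and 2.26 in CD8 controls. It was thus under the detection level in all 4 CD8 arrays. 1500009L16Rik had 10.26 and 10.50 in CD8 cells with romidepsin and 9.22 and 9.33 in their controls, so it was high in CD8 cells without the drug. Ifi209, an interferon-inducible gene of the PYHIN family, had 3.15 and 5.29 in CD4 cells with romidepsin, overlapping 2.78 and 3.58 in controls, and fell by 2.15 in CD8 cells, a fall lost without the block.

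**Figure D5:**
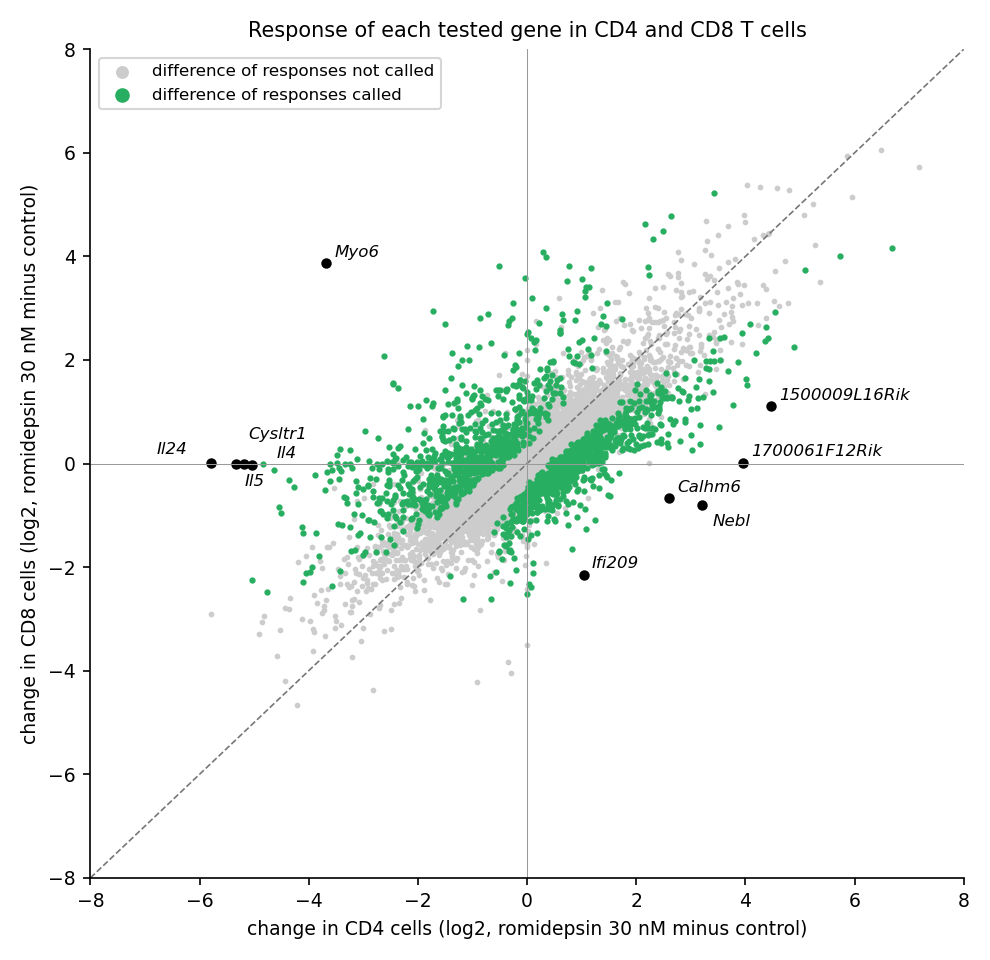
Change of each tested gene with romidepsin 30 nM (log2, minus control) in CD4 cells on the horizontal axis and in CD8 cells on the vertical axis, with genes whose responses differed in green, equal response dashed and 10 named genes in black. Myo6 stands alone at the upper left, lower in CD4 cells and higher in CD8 cells, and Il24, Il5, Il4 and Cysltr1 lie on the line of no change in CD8 cells.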

How the data were processed

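RNA was amplified, labelled with biotin and hybridised to Mouse430_2 arrays. The authors deposited 45101 probe set values per array, made with GCRMA per the submitters' processing notes, whose version and settings are not given in the sources used here. The unit was read as log2 from the range of the deposited values, and the build behind the probe annotation is not given. Of the probe sets 34958 name 1 gene by GEO's annotation, 932 several and 9211 none. The brightest probe set stood for a gene, and genes over the detection level (mode plus 2 log2 units, 4.275) in at least 2 of 28 arrays were tested.

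1 model was fitted to all 28 arrays with limma 3.58.1 in R 4.3.3 (group means, with a block for the replicate number set separately in CD4 and in CD8 arrays, 12 residual df and eBayes moderation), with Benjamini-Hochberg adjustment over 9868 genes within each contrast. The pairing comes from the data: deviations of arrays with the same number correlated at 0.762 to 0.94 in CD4 cells (21 comparisons, median 0.839) and 0.768 to 0.958 in CD8 cells. Sorted values of arrays of the same number differed by 0.00373 to 0.0482 on average, and of different numbers by 0.194 to 0.273. The labels give no batch.

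On simulated data for the main comparison (9868 genes, 200 changed, 10 runs), the share recovered with the block was 78.2% at 2-fold, 95.5% at 4-fold and 99.4% at 8-fold, and 104 of 96680 unchanged genes were called. Without the block 14.4%, 43.4% and 68.0% were recovered and 0 of 96680 were called. The simulated arrays were built from the fit with the block, with its replicate differences and its spread as independent normal noise. The lower shares without the block follow from that, so the simulation cannot decide between the fits. Each run changed 200 genes, against 6283 called in the arrays, and whether these shares hold for the arrays was not tested. With 2 arrays a group, the median 95% interval of a change was 0.35 to each side, and 0.98 without the block.

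Genes were named by rule: the 12 largest rises and falls measured in both groups, up to 6 each way with 1 mean under the detection level, up to 5 changed members of each list by size, the drug's targets and cell markers, and the 5 largest each way in the other comparisons. A gene outside it is said to have been named after its values were seen. The comparison, the members, the gene lists and the motifs were chosen with earlier results of these data known. Promoters are RefSeq windows on GRCm38.p6, matched by symbol or gene ID for 8106 of the 9868 genes. Listed genes with no probe set of their own were not analysed here. Alternatives in scaling, filter, probe set choice, variance prior, arrays used and an actin covariate were run.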

Additional observations from a re-analysis of the deposited data

Results flagged for a closer look

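The response to romidepsin at 30 nM differed between CD4 and CD8 cells in 1733 of 9868 genes by limma's test of the difference of responses, and in 99 without the replicate block, where Nebl, Calhm6, Ifi209 and Il4 of the genes below were lost. The 5 largest differences towards CD4 cells were Nebl (4.01), 1700061F12Rik (3.93), 1500009L16Rik (3.37), Calhm6 (3.27) and Ifi209 (3.18), each the CD4 change minus the CD8 change in log2 units. The 5 largest the other way were Myo6 (-7.56), Il24 (-5.81), Il5 (-5.33), Cysltr1 (-5.18) and Il4 (-5.02). The last 4 were under the detection level in the CD8 arrays of both groups, so their difference is the CD4 change alone. Each group held 2 arrays, too few for a test of single arrays that stand apart.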

How the results depend on the processing

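The count of 6283 changed genes was 2095 without the replicate block and 4013 with the actin covariate, ran from 5898 to 6452 over the other settings, and from 5114 to 5604 as each of the 4 arrays was left out. The 1056 genes that differed from 10 nM became 12 without the block, 287 with CD4 arrays only, 527 with no filter on dim genes and 550 with the actin covariate, and 22 (without replicate 2 of the 10 nM group) to 1116 with 1 array left out, with 74 when replicate 1 of the 30 nM group was left out. The 5 that differed from vorinostat became 3 without the block, 0 with CD4 arrays only by limma (582 higher and 196 lower at an unadjusted p under 0.05), 32 with no filter, 13 with the lower detection level and 97 with the actin covariate, and 9 to 14 with 1 array left out. The 5173 of CD8 cells became 1068 without the block and 3393 to 4680 with 1 array left out, lowest without CD8 control replicate 1. The 1733 differences of response became 99 without the block, and 740 to 1666 with 1 array left out: 740 without CD4 romidepsin replicate 1, 853 without CD4 control replicate 1, 936 without CD8 romidepsin replicate 2 and 1017 without CD8 control replicate 1. The cause of these moves was not tested, beyond the fewer arrays or degrees of freedom each leaves.

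Of 203 named genes with a call, 144 kept it without the block and 59 lost it. With the actin covariate 159 kept it, 43 lost it and Nop2 had -0.013 in place of 0.67 (adjusted p = 0.96), while 2 of the 6 named genes with no call gained one. With CD4 arrays only 201 of the 203 kept it, and with quantile normalization all 203. Of 34 list medians, 24 moved by more than the spread between replicate numbers with the actin covariate, the T cell receptor list to -1.09 from -2.22 and the cytotoxic list to -0.37 from -1.71, and 31 kept their sign, with class I deacetylases, cholesterol synthesis and the cytoskeleton turning. No scaling moved the median of all genes by over 0.1, but each scaling makes arrays alike and cannot show a shift common to all genes. A dim gene has only a bound, and 2 arrays a group limit every interval.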
